A study of Mus musculus with 5 samples.

Results

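The genes described here build the MHC class I antigen presentation pathway and its inducible proteasome. They were taken by symbol from the deposited small intestine gene table: the classical heavy chain genes H2-K1 and H2-D1, the light chain gene B2m, the peptide loading genes Tap1, Tap2 and Tapbp, the immunoproteasome subunit genes Psmb8, Psmb9 and Psmb10, and the regulator gene Nlrc5. All 10 were present among the 19198 genes of the table, and all 10 passed the expression filter that left 14352 genes for testing. The libraries came from small intestine of 5 mice. The Cre-negative group held 3 mAchR4 fl/fl mice, and the Cre-positive group held 2 littermates with the same floxed alleles and the Math1Cre*PR transgene, a Cre recombinase that RU486 activates and that is driven from Math1 (Atoh1), the secretory lineage gene of the intestinal epithelium. All 5 mice were given RU486 by mouth, 10 mg/kg each day over 4 days, so drug exposure was common to both groups and no mouse without RU486 and no transgenic mouse with unfloxed alleles was compared. Strain background, age and sex are not in the labels used here. The design text names whole small intestine, and the labels give no cell sorting. The H2 genes are among the most polymorphic of the mouse, and the counts rest on the mm10 reference named in the submitters' processing notes. In GENCODE M21 (GRCm38) 7 of the genes lie in the MHC region of chromosome 17, among them H2-K1 (33996017 to 34000347, minus strand), Tapbp (33915899 to 33929292, plus strand) and H2-D1 (35262730 to 35267499, plus strand). B2m lies on chromosome 2 (122147686 to 122153083, plus strand), Nlrc5 on chromosome 8 (94434356 to 94527272, plus strand) and Psmb10 also on chromosome 8 (105935735 to 105938444, minus strand). Chrm4, the targeted receptor gene, had 4, 20 and 4 counts in the Cre-negative mice and 13 and 5 in the Cre-positive mice, which is too few in whole tissue to check deletion in a minor cell lineage. Library totals ran from 4681119 to 6618204 estimated counts.

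MHC class I molecules display peptides of cytosolic proteins to CD8 T cells on nearly all nucleated cells. The proteasome cuts these proteins, the TAP transporter carries the peptides into the endoplasmic reticulum, and tapasin holds an empty heavy chain and β2-microglobulin at the transporter until a peptide is bound. Interferon-gamma raises the whole set through factors that include IRF1 and NLRC5, and it exchanges the 3 catalytic subunits of the constitutive proteasome for inducible ones. In the gut, epithelial cells, leukocytes and endothelium all carry class I molecules, and in whole tissue fewer cells of a type cannot be told from less RNA per cell.

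The shared control elements of the class I genes are shown because interferon and NF-kappaB signals are known to reach H2-K1, H2-D1 and B2m through them. Promoter sequence was taken from RefSeq (GRCm38.p6), which had entries for 8 of the 10 genes and none for Tap2 and Nlrc5. The windows of 300 bases were searched on both strands for an IRF element (GAANNGAAA, or GAAA and GAAA with any 2 bases between, which can overlap each other), a kappaB element (GGGATTCCC), a GAS element (TTCNNNGAA) and a CCAAT box (CCAAT). In all 32851 promoter windows the IRF element was found in 3403, the kappaB element in 116 (0.353%), the GAS element in 8.3% and the CCAAT box in 37.4%. H2-K1 and H2-D1 each held the kappaB and the IRF element and 2 CCAAT matches. B2m held the IRF element and a CCAAT box, and had no match to the kappaB letters used. Those letters are the form found in H2-K1 and H2-D1. Other forms of the kappaB element were not searched, so a gene without a match may still hold one. Psmb8 held 1 GAS match, and no IRF, kappaB or GAS match was found in the windows of Tap1, Tapbp, Psmb9 and Psmb10. CCAAT matches were also found in the windows of Tapbp, Tap1 and Psmb9, and the windows of Tap1 and Psmb9 overlap. The following stretches are 5′ to 3′ on the gene's strand, with matches in capitals. The H2-K1 stretch lies at chr17:34000348-34000467 (minus strand), bases 120 to 1 before the RefSeq start, and the B2m stretch at chr2:122147527-122147685 (plus strand).
H2-K1: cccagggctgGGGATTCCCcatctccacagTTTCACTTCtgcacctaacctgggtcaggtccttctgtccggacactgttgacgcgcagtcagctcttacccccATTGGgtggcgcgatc
B2m: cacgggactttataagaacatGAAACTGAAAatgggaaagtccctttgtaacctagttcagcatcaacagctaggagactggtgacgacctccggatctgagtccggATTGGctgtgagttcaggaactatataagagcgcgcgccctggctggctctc

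The kappaB and IRF elements of the heavy chain genes sit side by side within 29 bases. They are shown for H2-K1 (chr17:34000429-34000457, minus strand) and H2-D1 (chr17:35262924-35262952, plus strand) to compare the pair.
H2-K1: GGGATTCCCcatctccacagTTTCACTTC
H2-D1: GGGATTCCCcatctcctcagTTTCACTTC
Over 120 bases that start 10 bases before the kappaB element, the H2-K1 and H2-D1 promoters were identical at 107 positions (89.2%). A match is a description of letters, not a measurement of binding.

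None of the 10 genes passed edgeR's test between the groups, and no other gene of the table did. With edgeR's quasi-likelihood test, 0 of 10 members were called (background over all genes tested, 0% higher and 0% lower), and 0 of 10 had an unadjusted p under 0.05, against 3.38% of all genes (1.6% higher in the Cre-positive group). The edgeR adjusted p was 0.977 for 9 members and 0.993 for Tap2. DESeq2 called 0 of 10 members among 19 genes called in all (0.0836% of genes higher and 0.0488% lower), and limma-voom called 0 of 10 and 0 genes. At an unadjusted p under 0.05, DESeq2 had 3 members (H2-D1, Psmb8 and Nlrc5; background 3.3%, or 1.74% on the higher side) and limma-voom had 2 (Psmb8 and Nlrc5; background 2.31%, or 1.16% on the higher side). The log2 fold change (Cre-positive over Cre-negative throughout) was above 0 for 8 of 10 members, against 45.5% of all genes, and the median of the 10 was 0.42 against -0.04 over all genes tested. For 4 members, H2-K1, H2-D1, B2m and Psmb8, both Cre-positive mice lay above all 3 Cre-negative mice. Over all genes this held for 7.89%. For each of these 4 genes the exact Poisson 95% intervals of the nearest Cre-negative and Cre-positive mice overlapped. Overlap of intervals is not a test of a difference, so whether a separation exceeded counting error was not tested. Values below are CPM, the count divided by the TMM-scaled library size and multiplied by 1000000, in the order Cre-negative mouse 1, 2 and 3, then Cre-positive mouse 1 and 2. The labels give each library its own mouse. The 10 genes are not independent replicates, since they share inducers and some share reads.

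**Figure D1:**
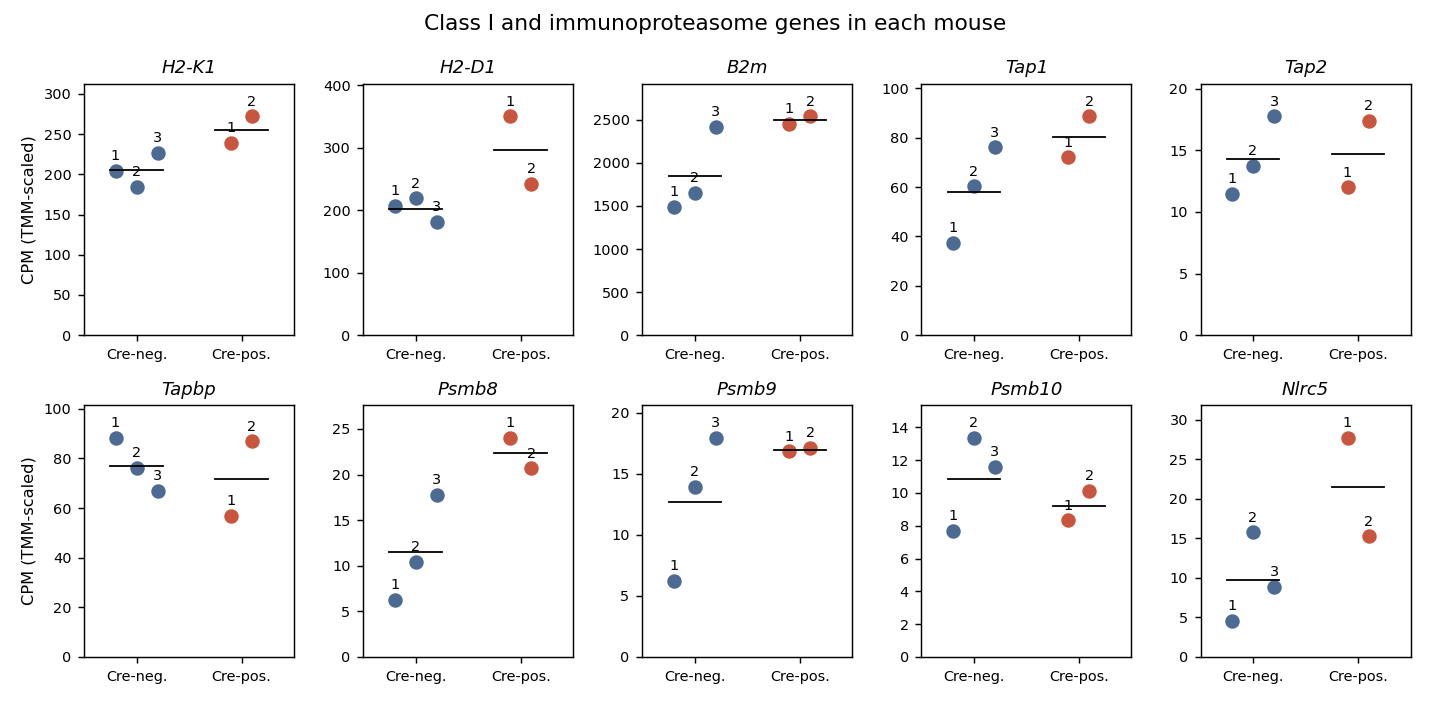
TMM-scaled CPM (y axes from 0) of the 10 genes in 3 Cre-negative (blue) and 2 Cre-positive (red) mice, with the replicate number above each point and a bar at the group mean. The groups do not overlap for H2-K1, H2-D1, B2m and Psmb8, and Cre-negative 1 is the lowest of the 5 for 7 genes.

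The heavy chain genes were close among the Cre-negative mice and higher in the Cre-positive ones, without passing the test. H2-K1 had 204, 184 and 227 CPM against 239 and 272 CPM, a log2 fold change of 0.31 ± 0.21 (SE). The exact Poisson 95% intervals of H2-K1 in Cre-negative 3 (216 to 239.7 CPM) and Cre-positive 1 (225 to 252 CPM) overlapped. H2-D1 had 207, 219 and 182 CPM against 350.4 and 242 CPM (0.55 ± 0.24; edgeR unadjusted p = 0.0557). Its highest value, in Cre-positive 1, set much of that difference, which came to 0.29 when that mouse was left out and to 0.83 without Cre-positive 2. The intervals of H2-D1 in Cre-negative 2 (207 to 232 CPM) and Cre-positive 2 (230.3 to 255 CPM) overlapped as well. Read sharing differed between the pair: the deposited H2-D1 counts were not whole in 5 of 5 libraries, while those of H2-K1 were whole within 0.005 in all. Of the 50-base windows of their GENCODE M21 transcripts, 12.8% of H2-D1 and 9.63% of H2-K1 also occurred in transcripts of other genes, most often of H2-Q1 (5.87%) and H2-Q10 (5.18%) respectively. The summed counts of H2-K1 and H2-D1 do not depend on how reads were split between these 2 genes. Since the H2-K1 counts were whole, the sum corrects little, and it does not settle reads that H2-D1 shares with other genes. H2-Q1 was lowest in Cre-positive 1, where H2-D1 was highest, and the part of shared reads in this was not tested. The sum was 411, 403 and 409.9 CPM in the Cre-negative mice (mean 408 ± 4.51 SD, n = 3) and 589 and 514 CPM in the Cre-positive mice (mean 551 ± 53.2 SD, n = 2). The difference was 0.43 on the log2 scale (exact permutation test with a two-sided p of 0.1, which is as low as 3 against 2 mice allow). It ranged from 0.33 to 0.53 when each mouse was left out in turn.

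B2m, the light chain shared by the classical and most nonclassical class I molecules, was the most abundant of the 10 genes. Per kilobase of its longest principal transcript it reached 2452 ± 579.8 CPM per kb (SD over 5 libraries), and its lowest library, at 1731, lay above the highest of H2-K1, at 168. Its CPM was 1489, 1648 and 2416 against 2451 and 2540 (log2 fold change 0.43 ± 0.30). Cre-negative 3 was nearly level with the Cre-positive mice, and the other Cre-negative mice were lower. The Poisson intervals of B2m in Cre-negative 3 (2377 to 2455 CPM) and Cre-positive 1 (2409 to 2494 CPM) overlapped. Next in level came H2-K1 (139 ± 20.7 CPM per kb) and H2-D1 (114 ± 31.1), whose ranges overlapped. Tapbp (25.9 ± 4.62) and Tap1 (22.6 ± 6.55) followed and overlapped each other. The immunoproteasome subunit genes Psmb9 (10.6 ± 3.56), Psmb8 (9.71 ± 4.51) and Psmb10 (7.78 ± 1.78) formed an overlapping group above Tap2 (4.21 ± 0.859) and Nlrc5 (1.90 ± 1.16), which overlapped as well. With the length of all annotated exons in place of the principal transcript, H2-D1 and H2-K1 changed places, as did Psmb9 and Psmb10, and the other 6 genes kept their rank.

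The log2 fold changes of the 3 peptide loading genes ran from -0.10 to 0.47, and differences between these genes were not tested. Tap1, a subunit of the peptide transporter, had 37.4, 60.2 and 76.1 CPM against 72.0 and 88.6 CPM (log2 fold change 0.47 ± 0.31). Tap2, the other subunit, had 48, 74 and 109 counts against 62 and 112, or means of 14.3 ± 3.17 CPM (SD, n = 3) and 14.7 ± 3.83 CPM (SD, n = 2), with a log2 fold change of 0.04 ± 0.32. Tapbp, which encodes tapasin, had 88.2, 76.3 and 67.0 CPM against 56.7 and 86.9 CPM (-0.10 ± 0.26). The groups overlapped for each of these genes. Tapbp had its highest value in Cre-negative 1, the library in which 7 of the 10 members had their lowest.

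Tap1 and Psmb9 are transcribed away from each other on chromosome 17, and their RefSeq starts (34187556 and 34187330, GRCm38.p6) are separated by 225 bases. In GENCODE M21 (GRCm38) the exons of Tap1 (34187553 to 34197225, plus strand) and Psmb9 (34181987 to 34187764, minus strand) overlap over 212 bases on opposite strands. The deposited counts of both genes were not whole in 5 of 5 libraries, and no source used here says whether counting used strand, so their split is uncertain. Psmb8 (34197721 to 34201454) and Tap2 (34203527 to 34216321) lie just beyond Tap1 on the plus strand, with whole counts. The sum of Tap1 and Psmb9 was 43.6, 74.1 and 94.0 CPM against 88.8 and 106 CPM (log2 difference 0.53; exact permutation test, two-sided p = 0.4). The difference came to 0.22 without Cre-negative 1 and to 0.77 without Cre-negative 3.

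The immunoproteasome subunit genes had log2 fold changes of unlike size and sign, and differences between these genes were not tested. Psmb8 encodes the inducible chymotrypsin-like subunit β5i. It had 26, 56 and 109 counts against 124 and 133. Scaled to library size these were 6.23, 10.38 and 17.8 CPM against 23.99 and 20.7 CPM, a log2 fold change of 0.95 ± 0.42 (edgeR unadjusted p = 0.0582; limma-voom unadjusted p = 0.0368, adjusted p = 0.979). The exact Poisson 95% intervals of the nearest mice, Cre-negative 3 (14.6 to 21.4 CPM) and Cre-positive 2 (17.3 to 24.5 CPM), overlapped. Whether this separation of the groups was larger than counting error was not tested. Intervals here cover counting error alone. Without Cre-negative 1 the log2 fold change of Psmb8 was 0.69 and without Cre-negative 3 it was 1.45. Psmb9 encodes the inducible subunit β1i. It had 6.23, 13.9 and 17.9 CPM against 16.8 and 17.1 CPM (0.41 ± 0.42), and without Cre-negative 1 the value was 0.12. Psmb10, the gene of the inducible subunit β2i, had 32, 72 and 71 counts against 43 and 65, or means of 10.9 ± 2.90 CPM (SD, n = 3) and 9.21 ± 1.26 CPM (SD, n = 2). Its groups overlapped and its log2 fold change was -0.24 ± 0.34. Across libraries the highest value was 3.85-fold the lowest for Psmb8, 2.88-fold for Psmb9 and 1.74-fold for Psmb10.

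Each inducible subunit takes the place of 1 constitutive subunit in the 20S core, and the ratio of such a pair within a library does not depend on scaling. The count ratio of Psmb8 to Psmb5 was 0.867, 3.11 and 3.89 against 3.76 and 7.82 (log2 difference 1.31; exact permutation test, two-sided p = 0.4, 0.6 adjusted over 3 ratios). This difference was 0.64 without Cre-negative 1, 0.78 without Cre-positive 2 and 1.84 without Cre-positive 1. The ratio of Psmb9 to Psmb6 was 0.51, 1.14 and 1.18 against 1.13 and 1.21 (log2 difference 0.41; exact permutation p = 0.7, adjusted 0.7). It was almost constant apart from Cre-negative 1, and without that mouse the difference was 0.01. The ratio of Psmb10 to Psmb7 was 0.229, 0.309 and 0.262 against 0.128 and 0.236 (log2 difference -0.61; exact permutation p = 0.2, adjusted 0.6), and it was -0.17 without Cre-positive 1. The 3 ratios thus gave differences of unlike sign. Psmb5 had few counts, and 54.1% of its 50-base windows also occurred in transcripts of other genes, Gm3375 above all, so its ratio is the least certain.

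**Figure D2:**
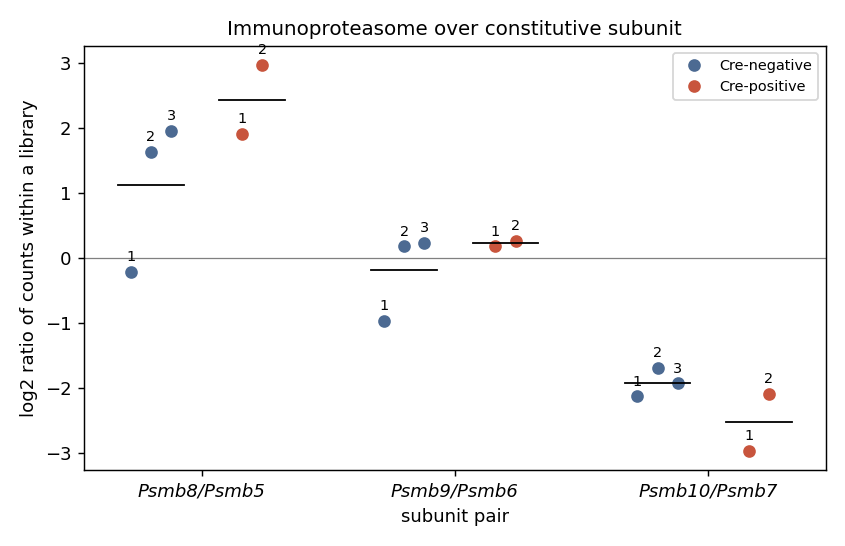
Log2 ratio of counts within each library for the 3 subunit pairs (x axis), with Cre-negative mice in blue, Cre-positive mice in red, replicate numbers above the points and bars at group means. Cre-negative 1 stands below the other 4 mice for Psmb8/Psmb5 (-0.21) and Psmb9/Psmb6 (-0.97), and Cre-positive 1 is lowest for Psmb10/Psmb7 (-2.97).

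Nlrc5 encodes the transactivator that binds class I promoters through a DNA-bound complex shared with MHC class II. It had 19, 85 and 54 counts against 143 and 98, or 4.55, 15.8 and 8.80 CPM against 27.7 and 15.2 CPM. Cre-positive 2 lay below Cre-negative 2, so the groups overlapped. The log2 fold change was 1.13 ± 0.51, the highest of the 10 genes (edgeR unadjusted p = 0.0631; DESeq2 unadjusted p = 0.0436, adjusted p = 1). It was 0.66 without Cre-positive 1 and 1.66 without Cre-negative 2. Nlrc5 also varied most among the members, with 6.08-fold between its lowest and highest library.

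**Figure D3:**
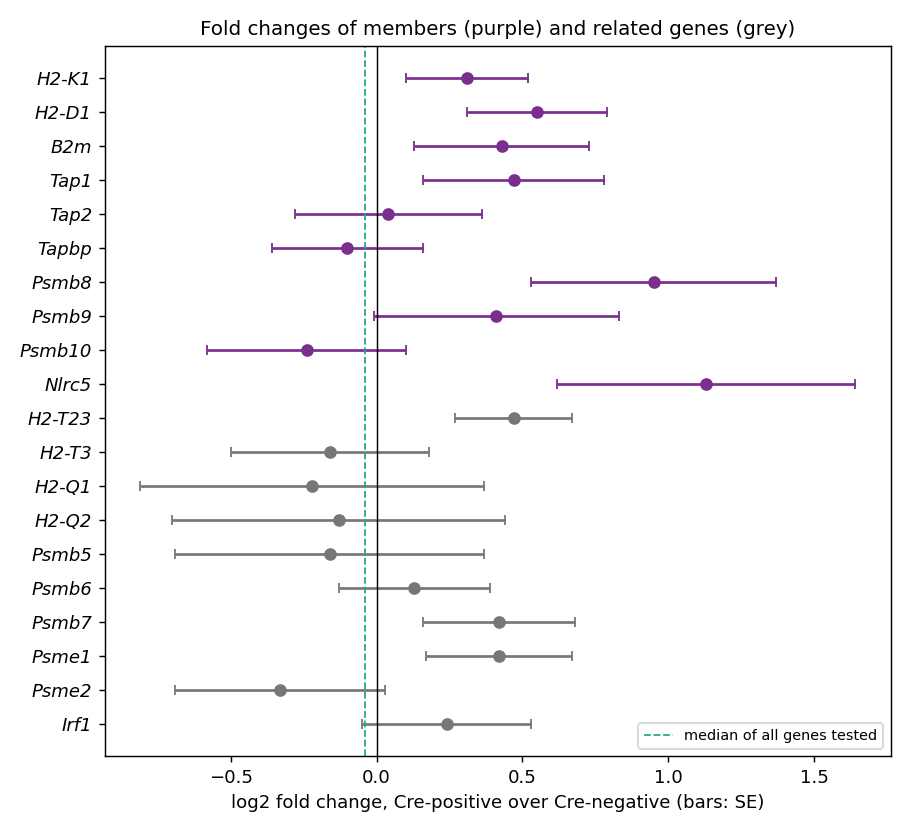
Log2 fold change between groups (Cre-positive over Cre-negative, x axis, bars are standard errors) for the 10 genes in purple and for related genes in grey, with the median of all genes tested as a dashed line at -0.04. Nlrc5 (1.13) and Psmb8 (0.95) lie farthest to the right, and no gene shown passed the test.

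Genes upstream of the pathway gave a mixed picture. Of 28 listed regulators and interferon signalling genes 27 were tested, and 0 were called by edgeR, DESeq2 or limma-voom. An edgeR unadjusted p under 0.05 was found for 2 (3.38% of all genes). The median log2 fold change of the 27 was -0.03, with 13 above 0 (45.5% of all genes). Irf1, an interferon-induced factor that acts on the IRF element, had 84.1, 109 and 57.8 CPM against 96.6 and 101 CPM (0.24 ± 0.29; edgeR adjusted p = 0.977). Of the complex that carries NLRC5 to DNA, Rfxank was lower in both Cre-positive mice (8.39, 4.45 and 7.98 CPM against 2.71 and 3.11; -1.24 ± 0.43, edgeR unadjusted p = 0.0232, adjusted p = 0.977). The deposited counts of Rfxank were not whole in 5 of 5 libraries, and 1341 of its 3967 exon bases overlap Nr2c2ap on the opposite strand. Rfx5 and Rfxap, its partners, had log2 fold changes of 0.10 ± 0.28 and -0.09 ± 0.42. Nfya, a subunit of the CCAAT-box factor, had 0.70 ± 0.31 (edgeR adjusted p = 0.977). Ifng was not analysed here.

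The constitutive proteasome core genes mostly had fold changes above 0, without passing the test. Over all genes tested, 45.5% were above 0 and 3.38% had an edgeR unadjusted p under 0.05. Of 14 constitutive 20S genes, 0 were called by edgeR, DESeq2 or limma-voom, 13 had a log2 fold change above 0, and the median was 0.36 (0.16 without Cre-positive 1). An edgeR unadjusted p under 0.05 was found for 3 of them, the ring subunit genes Psma5 (0.97 ± 0.29), Psma2 (0.66 ± 0.27) and Psma6 (0.72 ± 0.30), each highest in Cre-positive 1 (edgeR adjusted p = 0.977). The constitutive catalytic subunit genes Psmb5, Psmb6 and Psmb7 had -0.16 ± 0.53, 0.13 ± 0.26 and 0.42 ± 0.26. Of 8 activator and assembly genes tested 3 were above 0, with 0 called and 0 at an edgeR unadjusted p under 0.05, and the median was -0.08. The 2 subunits of the interferon-inducible PA28 cap had values of unlike sign, not tested against each other: Psme1 had 0.42 ± 0.25 and Psme2 -0.33 ± 0.36. Psme4, the gene of a further activator, had 0.41 ± 0.21, and Pomp, the assembly chaperone gene, -0.30 ± 0.23. Of 7 cytosolic peptidase genes 6 were above 0 with a median of 0.23 and 0 were called. An edgeR unadjusted p under 0.05 was found for 1, the tripeptidyl peptidase gene Tpp2 (73.3, 79.3 and 89.4 against 134 and 107 CPM; 0.58 ± 0.21, edgeR unadjusted p = 0.0282, adjusted p = 0.977), followed by Nrd1 (0.45 ± 0.22) and Lnpep (0.22 ± 0.22).

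Of 12 peptide loading and endoplasmic reticulum genes, members included, 11 were above 0 (45.5% of all genes) with a median of 0.39. Of these 12 genes 0 were called, and 1 had an edgeR unadjusted p under 0.05 (3.38% of all genes). That gene was Sec61g, a translocon subunit gene with few counts (1.20, 2.78 and 1.47 against 5.22 and 3.89 CPM; 1.30 ± 0.50, edgeR adjusted p = 0.977). Sec61b, another translocon subunit gene, had 0.70 ± 0.32, and Calr, the gene of the loading chaperone calreticulin, 0.35 ± 0.22. Lists with medians above 0 thus included general folding and degradation genes beside the class I genes.

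The nonclassical and related heavy chain genes did not share a direction. Of 39 listed heavy chain genes and relatives, H2-K1 and H2-D1 included, 21 were in the table and 18 were tested. Of the 18, 9 were above 0 (45.5% of all genes), with a median of 0.02. None was called, and 0 had an edgeR unadjusted p under 0.05 (3.38% of all genes). H2-T23, which encodes Qa-1, the ligand of an inhibitory receptor on natural killer cells, was higher in both Cre-positive mice without passing the test: 46.7, 51.1 and 57.7 CPM against 73.3 and 70.3 CPM (0.47 ± 0.20; edgeR unadjusted p = 0.0536, adjusted p = 0.977). H2-Q2 had 761, 509 and 1342 CPM against 379.7 and 1212 CPM, while H2-Q1 had 165, 109.9 and 292 CPM against 72.4 and 251 CPM. Both were high in Cre-negative 3 and Cre-positive 2 and lowest in Cre-positive 1, so the spread ran within the groups and not between them. H2-T3, the gene of the thymus leukemia antigen that intestinal epithelium displays, had 34.0, 32.6 and 40.9 CPM against 20.5 and 43.4 CPM. It was also lowest in Cre-positive 1, but its highest value was in Cre-positive 2, whereas H2-Q1 and H2-Q2 peaked in Cre-negative 3. The log2 fold changes were -0.13 ± 0.57 for H2-Q2, -0.22 ± 0.59 for H2-Q1 and -0.16 ± 0.34 for H2-T3, and all 3 were above 0 without Cre-positive 1 (0.51, 0.44 and 0.31). H2-Q1 and H2-Q2 share windows with each other, and H2-Q1 does so with H2-D1. H2-Q1 and H2-Q2 together had more counts than H2-K1 and H2-D1 together in 4 of the 5 libraries, with Cre-positive 1 the exception (452 against 589 CPM). The sum of 17 H2 heavy chain genes therefore followed them, at 1510, 1184 and 2213 CPM against 1251 and 2161 CPM (log2 difference 0.06; exact permutation test, two-sided p = 0.8), and it turned to -0.15 without Cre-negative 2 and to -0.34 without Cre-positive 2.

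A pair of libraries stood apart in cell type markers. In Cre-positive 1, 18 of 19 leukocyte markers had their highest value, and their summed level was 505 CPM against 42.5 to 87.7 CPM in the other 4 mice. The B cell receptor gene Cd79a had counts in that library alone. In Cre-negative 1, the summed level of 8 smooth muscle markers was 2109 CPM against 666 to 997 CPM elsewhere, and that of 7 stroma markers was 662 CPM against 190.3 to 365 CPM. Epithelial markers summed to 3684 and 5497 CPM in the Cre-positive mice and to 3912 to 4635 CPM in the Cre-negative mice, and all 10 had counts in each library. H2-D1, Psmb8 and Nlrc5 had their highest values in Cre-positive 1. Without that mouse 9 of 10 members had a log2 fold change above 0 (background 47.3%), the median was 0.44, and 0 were called. Cre-negative 1 held the lowest value of 7 of the 10 members, against 21.7% of all genes tested, and without it the median was 0.29. Mitochondrial genes took 23.8%, 21.2% and 17.3% of the counts in Cre-negative mice 1 to 3 and 17.8% and 18.8% in the Cre-positive mice, with the highest share in Cre-negative 1. The part of leukocyte, muscle or mitochondrial RNA in the values of the members was not tested.

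**Figure D4:**
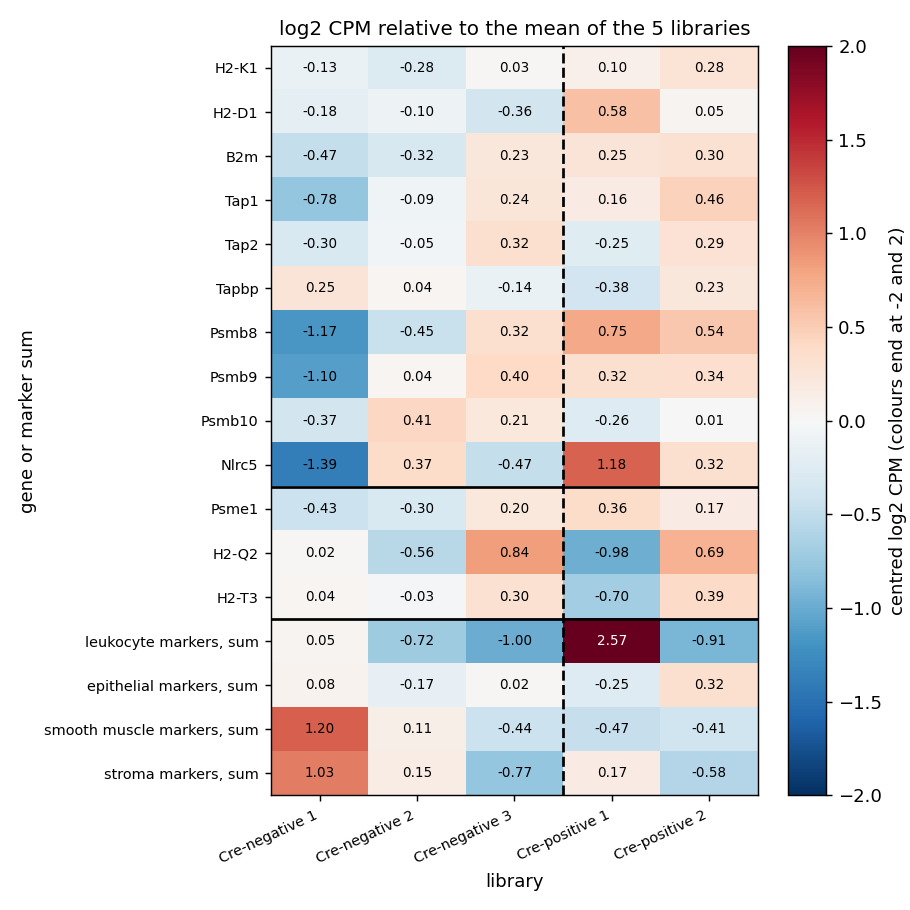
Log2 CPM relative to the mean of the 5 libraries (colours and printed values) for the 10 genes, 3 related genes and the summed levels of 4 marker lists, with libraries in columns and a dashed line between the groups. Cre-negative 1 is low for Nlrc5 (-1.39), Psmb8 (-1.17) and Psmb9 (-1.10) and high for the smooth muscle sum, and Cre-positive 1 is high for Nlrc5 (1.18) and for the leukocyte sum.

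The mean pattern of the 10 genes, in centred log2 CPM, was -0.56, -0.04 and 0.08 against 0.25 and 0.28. Among 7718 other genes whose mean log2 CPM reached 3, those nearest to it were Lpar6, Slc33a1, Sec61a1, Trim31 and Adgrg7, with root mean square differences of 0.026 to 0.063 over the 5 libraries, against a median of 0.401. The members themselves differed from their mean by 0.149 (B2m) to 0.636 (Nlrc5). Tap1 (0.152) and H2-K1 (0.233) were the next nearest to it, and Tapbp (0.474) was the farthest after Nlrc5. With 5 libraries such a distance describes these mice, and many genes can fall near any given pattern.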

How the data were processed

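Total RNA of 5 small intestines was depleted of ribosomal RNA and sequenced, per the labels. The authors deposited 1 table of estimated counts by gene symbol. The submitters' processing notes name Partek and mm10, and give no aligner, annotation or strand setting in the sources read here. Between 19.6% and 21.7% of values per library were not whole, as when reads are divided between genes. Library totals ran from 4681119 to 6618204 estimated counts. No column was left unmapped. Counts were rounded and tested with edgeR 4.0.16 in R 4.3.3 (TMM, genes kept by filterByExpr at min.count 10, quasi-likelihood fit with robust estimation on genotype, Benjamini-Hochberg threshold 0.05), which left 14352 genes and removed 4846. Standard errors come from dividing a log2 fold change by the root of its F statistic. The script was tested on simulated data. DESeq2 1.42.0, limma-voom (limma 3.58.1), other scalings and filters, and leaving out each mouse were alternatives. Sums and ratios had exact permutation tests over 10 splits. Coordinates and exon lengths came from GENCODE M21. Members and lists were chosen with earlier results of these data known. Named genes are the 10 members, the 3 genes of each list with the smallest unadjusted p, fixed pathway genes (Psmb5, Psmb6, Psmb7, Psme1, Psme2, Irf1) and the 5 genes nearest in pattern, and 1 further gene of the rule is not reported here. Other genes named were chosen after their values were seen. The motif letters were chosen with the H2-K1 and H2-D1 promoters in view. The sums of Tap1 with Psmb9 and of H2-Q1 with H2-Q2 and the ranking by all exons were added after seeing the data.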

Additional observations from a re-analysis of the deposited data

How the results depend on the processing

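For the 10 members, 8 alternatives of scaling, filter and tool and 5 that left out 1 mouse gave no adjusted p under 0.05 (lowest 0.322, H2-D1 without Cre-positive 2), and 7 to 9 members were above 0 in each. Over all genes, DESeq2 called 19 and edgeR called 58 without Cre-positive 2 (0 to 58 over the 5 fits without 1 mouse), against 0 with edgeR on all mice. At an unadjusted p under 0.05 there were 485 genes with all mice, 769 without a filter and 176 to 1729 without 1 mouse. Signs turned for Tap2 (-0.07 without Cre-negative 1 and -0.22 without Cre-positive 2), Tapbp (0.03 without Cre-negative 1 and 0.21 without Cre-positive 1; -0.40 to 0.21 over the 5) and Psmb5 (0.20 without Cre-negative 1 and 0.40 without Cre-positive 2; -0.87 to 0.40). H2-Q1 and H2-Q2 had 0.27 and 0.36 without Cre-negative 3 and 0.44 and 0.51 without Cre-positive 1, and H2-T3 had 0.31 without Cre-positive 1, while without Cre-positive 2 these genes had -1.35, -1.16 and -0.77. The sum of H2-Q1 and H2-Q2, added after seeing the data, went from -0.27 to 0.10 without Cre-negative 3 and 0.58 without Cre-positive 1 (-1.11 without Cre-positive 2). The sum of 17 heavy chain genes ranged from -0.34 to 0.45 over the fits without 1 mouse (-0.15 without Cre-negative 2). The cause was not tested. With Cre-positive 1 or 2 left out, the lone mouse is assumed to vary like the Cre-negative ones. No paired analysis was possible because the labels give the groups no shared replicate numbers. Genes with few counts, such as Nlrc5 in Cre-negative 1 (19 counts), are limited by depth.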
